A study of Mus musculus with 59 samples.

Results

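The let-7 hairpins and the genes of their Lin28 opponents were followed through RNA and chromatin data of mouse embryonic stem cells: the microRNA hairpin genes Mirlet7a-1 and Mirlet7d, the genes of the RNA-binding proteins Lin28a and Lin28b, and Trim71. They were chosen by gene symbol, mapped from the Ensembl identifiers of the tables, and make up 5 of 39017 gene identifiers. On chromatin they were followed through the 5 kb windows that overlap their mm10 spans, 39 of 546202 windows. Every library came from embryonic stem cells of a 129xC57Bl6 hybrid background, grown on gelatin in serum with LIF. In the first RNA set, Rosa26:CRE, DGCR8 Flox/Flox cells (the DGCR8 line) and Drosha Flox/Flox cells (the Drosha line) were given 0.5 µM 4-hydroxytamoxifen (4OHT, a drug used to switch on tamoxifen-dependent Cre) for 24, 48 or 96 h, and untreated cells of the same line and time were the controls. Each group had 2 libraries except 4OHT-treated Drosha cells at 96 h, which had 1. The labels state no recombinase for the Drosha line, and no line without floxed alleles was treated, so an effect of the drug itself cannot be told apart from an effect of the deletion. In the second RNA set, 4 Mettl3 knockout lines (1d1, 3xU, 1d2 and 2c4d) and 2 parental samples, all carrying Rosa26:BirA and DGCR8 FLAG/Avi, were each sampled after 1 h at 42 °C and at 37 °C. Chromatin came from Rosa26:BirA cells with a FLAG/Avi tag on DGCR8, Drosha, Dicer or METTL3, whose biotin-bearing tag was pulled down with streptavidin after crosslinking with formaldehyde (FA) or with DSG, and from inputs. METTL3 had 4 precipitates of 2 clones with 2 inputs, and, in the heat set, precipitates of H4 and H5 at 42 °C (1 h) and at 37 °C with 37 °C inputs. DGCR8 was also precipitated from Mettl3 knockout and wild type cells, a set with a wild type input only. In the heat set DGCR8 was precipitated after 1 h at 42 °C and at 37 °C, with a 37 °C input. Each DGCR8, Drosha and Dicer condition had 1 library.

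The let-7 microRNAs are excised from long primary transcripts by the Microprocessor, in which Drosha cuts and DGCR8 holds the hairpin, and are then freed from the hairpin by Dicer. Embryonic stem cells transcribe let-7 genes but hold little mature let-7, because the Lin28 proteins bind the let-7 hairpin loop, block its cutting and have it tailed for decay. Lin28a, Lin28b and Trim71 transcripts are themselves targets of let-7, so the hairpins and these proteins oppose each other in a loop that is known for timing development. METTL3, the enzyme that writes N6-methyladenosine into RNA, is known to mark primary microRNA transcripts in human cells.

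The sequences of both hairpins, from the RefSeq tables for GRCm38.p6, show the part that Lin28 proteins recognise. The tetranucleotide GGAG, the known contact of the Lin28 zinc knuckles, is in capitals. Mirlet7a-1 (ENSMUSG00000065421) lies on the minus strand at chr13:48538179-48538272 and Mirlet7d (ENSMUSG00000065453) on the same strand at chr13:48536012-48536114, so transcription meets Mirlet7a-1 first.
Mirlet7a-1 hairpin: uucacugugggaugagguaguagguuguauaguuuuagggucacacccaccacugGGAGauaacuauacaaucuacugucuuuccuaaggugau
Mirlet7d hairpin: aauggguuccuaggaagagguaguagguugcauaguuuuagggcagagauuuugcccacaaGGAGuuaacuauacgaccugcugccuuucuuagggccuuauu
GGAG was present in 9 of the 12 let-7 family hairpins of the table, all but Mir98, Mirlet7b and Mirlet7c-2, and in 447 of all 1005 hairpins (44.5%), so the letters alone are common.

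The mature strands cut from these hairpins are shown with the seed, bases 2 to 8, in capitals, since the seed is what a microRNA pairs with its targets.
mmu-let-7a-5p: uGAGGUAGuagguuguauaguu
mmu-let-7d-5p: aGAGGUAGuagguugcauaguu
mmu-let-7a-1-3p: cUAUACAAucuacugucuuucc
mmu-let-7d-3p: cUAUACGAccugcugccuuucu
The 5p strands share the seed GAGGUAG, and differ over 22 bases at 2 positions counted from 1 at the 5′ end, U1A and U16C, written with the let-7a base first. The same seed was found in the mature entries of 11 of the 12 let-7 family genes. In all it stood in 13 of 1738 mature entries, under 11 names, of which mmu-let-7k and mmu-miR-1961 were the only ones outside those genes. This counts entries of the reference and does not show that the remaining gene lacks the seed. The 3p strands do not share a seed with each other: UAUACAA stands against UAUACGA.

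Lin28a and Trim71, whose RNA fell after 96 h of 4OHT, are shown by the 300 bases around their start, 250 before it and 50 after it, with CG dinucleotides in capitals. The Lin28a window is chr4:134018767-134019066 and the Trim71 window chr9:114564320-114564619, both on the minus strand of GRCm38.p6, and each lies in the 5 kb window that holds the start of its gene.
Lin28a promoter: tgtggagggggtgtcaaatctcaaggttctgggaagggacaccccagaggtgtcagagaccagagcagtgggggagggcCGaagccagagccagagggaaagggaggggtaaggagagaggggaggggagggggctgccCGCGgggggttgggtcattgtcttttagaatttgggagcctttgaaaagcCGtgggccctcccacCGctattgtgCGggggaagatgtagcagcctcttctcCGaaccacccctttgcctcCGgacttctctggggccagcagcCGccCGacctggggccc
Trim71 promoter: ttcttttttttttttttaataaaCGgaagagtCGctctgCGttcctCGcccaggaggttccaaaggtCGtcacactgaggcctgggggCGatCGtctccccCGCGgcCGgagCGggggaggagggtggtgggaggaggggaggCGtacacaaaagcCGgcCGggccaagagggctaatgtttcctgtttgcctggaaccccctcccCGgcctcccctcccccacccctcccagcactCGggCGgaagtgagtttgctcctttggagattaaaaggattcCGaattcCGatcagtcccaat
The Trim71 promoter held 19 CG dinucleotides (59.3% G and C), the Lin28a promoter 10 (63.3%) and the Lin28b promoter 8 (39.0%), against medians of 7 and 52.7% over 32851 promoters of the same length. Both strands were searched for 5 motifs. CCAAT, found in 37.4% of all promoters, was in those of Trim71 and Lin28b, and GGGCGG, in 35.7%, was in those of Trim71 and Lin28a. CACGTG, in 7.15%, was in that of Lin28b. ATTTGCAT, in 1.74% of promoters, and the heat shock element letters GAANNTTC, in 7.86%, were in none of the 3 windows.

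Depth ranged from 9578093 to 12611084 counted reads per library in the floxed RNA set and from 7102867 to 13579892 in the heat RNA set, and from 13775668 to 86256100 over the chromatin libraries. All 10 embryonic stem cell markers (among them Pou5f1, Sox2 and Nanog) were above 0 in each of the 35 RNA libraries. Titles and source names of the labels conflict for several samples, and titles were followed. Under them Drosha RNA in the Drosha line was 23.4 to 29.1 CPM (the usual per-library scaling of read counts, here with TMM factors for RNA and with library totals for chromatin) in 4OHT libraries against 82.4 to 126 CPM in controls, and fell at each time (log2 fold changes -1.68, -2.12 and -2.28). Dgcr8 RNA, counted over the whole gene, rose in the 4OHT libraries of both lines, and so does not check the deletion of its floxed exons. Mettl3 RNA in the knockout lines averaged 30.1 CPM at 37 °C, against 70.3 CPM in parental cells (log2 fold change -1.23, adjusted p = 0.0439). Nothing in the labels says that libraries of 1 group came from separate cultures, so p-values of the floxed set rest on a spread that may be technical.

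Levels were set side by side per length, as the median CPM per kb of the counted gene model over the 23 floxed libraries. Lin28a stood highest at 87.9, then Trim71 at 79.1, Mirlet7a-1 at 30.9, Lin28b at 25.2 and Mirlet7d at 2.57 CPM per kb. The order was the same over the 12 heat set libraries, at 103, 99.8, 32.5, 18.1 and 0.818 CPM per kb. Lin28a and Trim71, and likewise Mirlet7a-1 and Lin28b in the floxed set, differed by less than the spread of either between libraries. The hairpin genes are counted over 100 and 103 bases, so few reads stand behind them: 999 reads in 23 libraries for Mirlet7a-1 (9 to 87 each) and 84 for Mirlet7d (0 to 12 each). Reads over a hairpin cannot tell the primary transcript from the excised hairpin, and the ribosomal RNA-depleted libraries were not a measure of the mature microRNA.

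**Figure D1:**
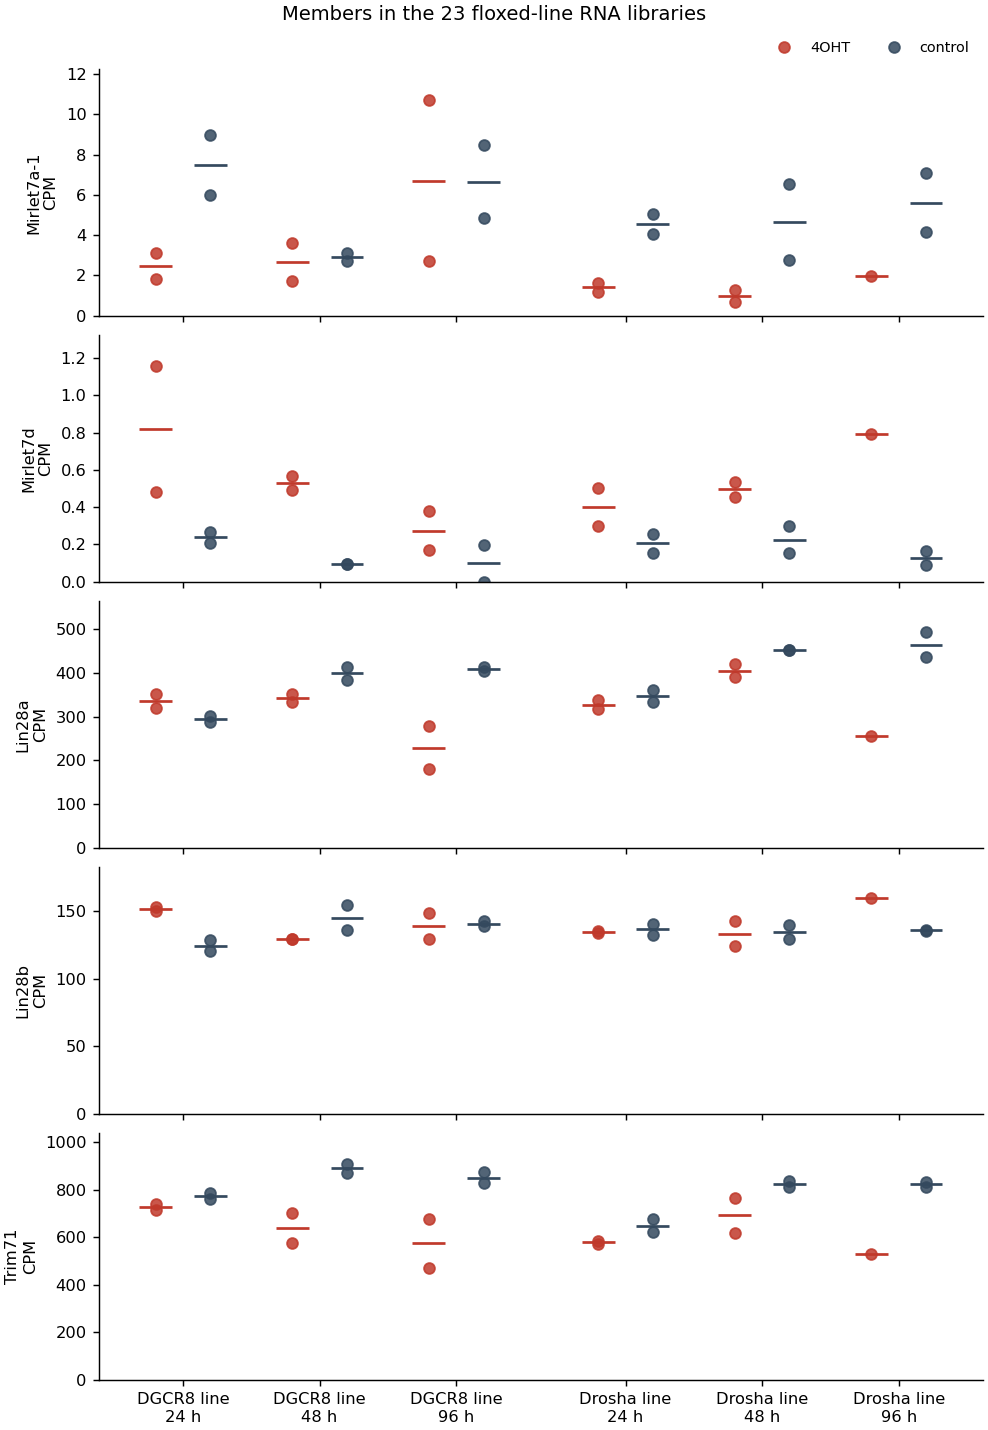
Level of each of the 5 genes in each of the 23 floxed libraries, in TMM-scaled CPM, with 4OHT libraries (red) left of their controls (blue) at 24, 48 and 96 h in both lines; bars are group means. Lin28a and Trim71 are lower in the 4OHT libraries than in the controls at 96 h in both lines, while the Lin28b points stay between 120 and 160 CPM.

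Mirlet7a-1 RNA was lower in 4OHT cells of the Drosha line at every time. It stood at 1.19 and 1.60 CPM in 4OHT libraries against 5.03 and 4.05 CPM in controls at 24 h, at 0.680 and 1.25 against 2.77 and 6.53 CPM at 48 h, and at 1.99 CPM in the single 4OHT library against 7.06 and 4.18 CPM at 96 h. No 4OHT library reached a control of its time, and over the line 75 reads were counted in 5 4OHT libraries against 348 in 6 control libraries. How many of all genes have groups that lie apart like this was not counted, here or below, so such separations are description only. Mirlet7a-1 fell at 48 h by 2.25 ± 0.47 on the log2 scale (SE, n = 2 and 2; adjusted p = 0.0196 by edgeR's quasi-likelihood test), to a fold of 0.210. That call rests on single libraries: without 4OHT replicate 1 the log2 fold change was -1.84 (adjusted p = 0.151) and without control replicate 2 it was -1.54 (0.166). The differences at 24 h (-1.71 ± 0.44, adjusted p = 0.208) and at 96 h (-1.50 ± 0.52, 0.0515) did not pass, and at 24 h 0.0307% of genes were called lower. Mirlet7a-1 was the single call among the 4 genes that passed the filter on low counts at 48 h, where 0.369% of 16262 genes tested were called lower.

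In the DGCR8 line the Mirlet7a-1 libraries did not move together. The 4OHT libraries had 3.09 and 1.82 CPM against 8.98 and 5.99 CPM in controls at 24 h, 1.69 and 3.63 against 2.69 and 3.09 CPM at 48 h, and 10.7 and 2.70 against 8.46 and 4.87 CPM at 96 h. The groups were apart at 24 h and overlapped at 48 and 96 h. Mirlet7a-1 log2 fold changes in that line were -1.59 ± 0.59 (adjusted p = 0.881), -0.12 ± 0.64 (0.964) and -0.04 ± 0.55 (0.974), and none passed. The effect in the DGCR8 line minus that in the Drosha line was 2.12 ± 0.90 at 48 h (adjusted p = 0.936) and 1.45 ± 0.91 at 96 h (0.518), so a difference between the lines was not shown at this depth. The line differences called 0.00602% of genes at 48 h.

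Mirlet7d, which lies downstream of Mirlet7a-1 on the same strand, was higher in 4OHT cells. Its reads were 12 and 5 in 4OHT libraries of the DGCR8 line against 2 and 3 in controls at 24 h, 6 and 5 against 1 and 1 at 48 h, and 3 and 2 against 2 and 0 at 96 h. In the Drosha line they were 4 and 5 in 4OHT libraries against 3 and 2 in controls at 24 h, 6 and 6 against 2 and 3 at 48 h, and 8 against 2 and 1 at 96 h. In 5 of the 6 pairs of groups each 4OHT library exceeded each control in CPM, the exception being the DGCR8 line at 96 h. Over both lines the 11 4OHT libraries held 62 reads (0.529 ± 0.261 CPM, SD) against 22 reads in the 12 controls (0.164 ± 0.0860 CPM). An exact permutation test of the mean CPM, two-sided, with labels exchanged within line and time, gave p = 8.57e-05, where the smallest p the 23328 permutations allow is 4.29e-05. That p is not adjusted, and the test was run for Mirlet7d alone, a gene chosen with earlier results known. No other hairpin gene was put through it, so no share over all genes stands beside it. The test takes libraries as exchangeable, though those of a group may share a culture. By line, 4OHT libraries held 33 reads in 6 DGCR8 and 29 reads in 5 Drosha libraries, against 9 and 13 reads in the 6 controls of each line. Mirlet7d passed no filter of the single-line fits, and control libraries sit at or under the 3 reads that a count of 0 allows, so no fold is given; these limits cover counting error only.

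Of the other let-7 hairpin genes, 8 had rows in the RNA tables. Mir98 had 206 reads and Mirlet7f-2 had 84 over the 23 floxed libraries, Mirlet7i had 12, Mirlet7g 8, Mirlet7c-2 5 and Mirlet7b 4, and Mirlet7a-2 and Mirlet7c-1 had 0. With their host genes, 13 of 18 genes on that list were in the tables, 3 were tested in the DGCR8 line and 5 in the Drosha line, and Mirlet7a-1 at 48 h was the single call among them.

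Lin28a RNA fell at 96 h of 4OHT in both floxed lines. In the DGCR8 line it stood at 179 and 278 CPM in 4OHT libraries against 403 and 413 CPM in controls, and in the Drosha line at 256 CPM in the 4OHT library against 493 and 436 CPM. The groups did not overlap in either line, which with so few libraries is description only. The log2 fold change was -0.84 ± 0.16 in the DGCR8 line (fold 0.560, adjusted p = 0.00846) and -0.86 ± 0.12 in the Drosha line (fold 0.550, adjusted p = 0.000198), and the difference between the lines was 0.03 ± 0.22 (adjusted p = 0.975). The call of the DGCR8 line was lost without either control library (adjusted p = 0.0597 and 0.0704) and in a fit of those 4 libraries alone (0.144).

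At the earlier times Lin28a did not pass. Its 4OHT libraries in the DGCR8 line had 319 and 351 CPM against 301 and 288 CPM in controls at 24 h, and 333 and 351 against 415 and 384 CPM at 48 h, a log2 fold change of 0.20 ± 0.16 and then -0.21 ± 0.16. In the Drosha line the values were 337 and 318 CPM against 333 and 360 CPM at 24 h, and 420 and 390 against 453 and 453 CPM at 48 h (-0.08 ± 0.09 and -0.17 ± 0.09). The 4OHT effect at 96 h minus that at 24 h was -0.78 ± 0.15 in the Drosha line (adjusted p = 0.00550), a call that 5.23% of genes shared in that direction, and -1.03 ± 0.23 in the DGCR8 line, which did not pass (adjusted p = 0.137; 0.0134% of genes called lower). Lin28a in the untreated controls differed between the times too, at 301 and 288 CPM at 24 h and 403 and 413 CPM at 96 h in the DGCR8 line.

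Trim71, an RNA-binding ubiquitin ligase that silences mRNAs and is a classical let-7 target, fell at 96 h as well. Its 4OHT libraries had 472 and 678 CPM against 827 and 875 CPM in controls of the DGCR8 line (log2 fold change -0.57 ± 0.15, fold 0.676, adjusted p = 0.0345), and 530 against 813 and 832 CPM in the Drosha line (-0.64 ± 0.13, fold 0.643, adjusted p = 0.00289). The groups did not overlap in either line, again as description only, and the line difference was 0.07 ± 0.22 (adjusted p = 0.918). The Trim71 call of the DGCR8 line was lost without either control (adjusted p = 0.128 and 0.190), without 4OHT replicate 1 (log2 fold change -0.33, adjusted p = 0.0866), and in a fit of those 4 libraries alone (0.214). So 2 of the 4 tested genes were called lower at 96 h in each line, where 5.22% of all genes tested in the DGCR8 line and 11% of those in the Drosha line were called lower.

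At 24 and 48 h, too, every Trim71 value of the 4OHT libraries was under every control of its line and time, which is description only. At 48 h the values were 574 and 701 CPM against 872 and 908 CPM in the DGCR8 line (-0.47 ± 0.15, adjusted p = 0.167) and 767 and 619 against 813 and 837 CPM in the Drosha line (-0.26 ± 0.10, 0.212), neither of which passed. At 24 h they were 713 and 738 against 762 and 788 CPM, and 572 and 585 against 622 and 675 CPM (-0.09 ± 0.15 and -0.16 ± 0.10). The 96 h effect minus the 24 h effect of Trim71 did not pass in either line (-0.48 ± 0.22, adjusted p = 0.455, in the DGCR8 line and -0.48 ± 0.16, 0.0701, in the Drosha line).

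Lin28b, the paralog that blocks let-7 in the nucleus, did not follow Lin28a. Its 23 values ran from 120 to 160 CPM, a ratio of 1.33 between the highest and the lowest library. At 96 h the 4OHT libraries had 149 and 129 CPM against 142 and 139 CPM in controls of the DGCR8 line and 160 against 136 and 136 CPM in the Drosha line. The groups overlapped in the DGCR8 line, and in the Drosha line the 4OHT library was the higher. The log2 fold changes were -0.02 ± 0.11 (adjusted p = 0.937) and 0.23 ± 0.11 (0.157). At 24 h the DGCR8 line had 150 and 153 CPM in 4OHT libraries against 129 and 120 CPM in controls (0.29 ± 0.11, adjusted p = 0.902), and the remaining log2 fold changes lay between -0.16 and -0.02.

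**Figure D2:**
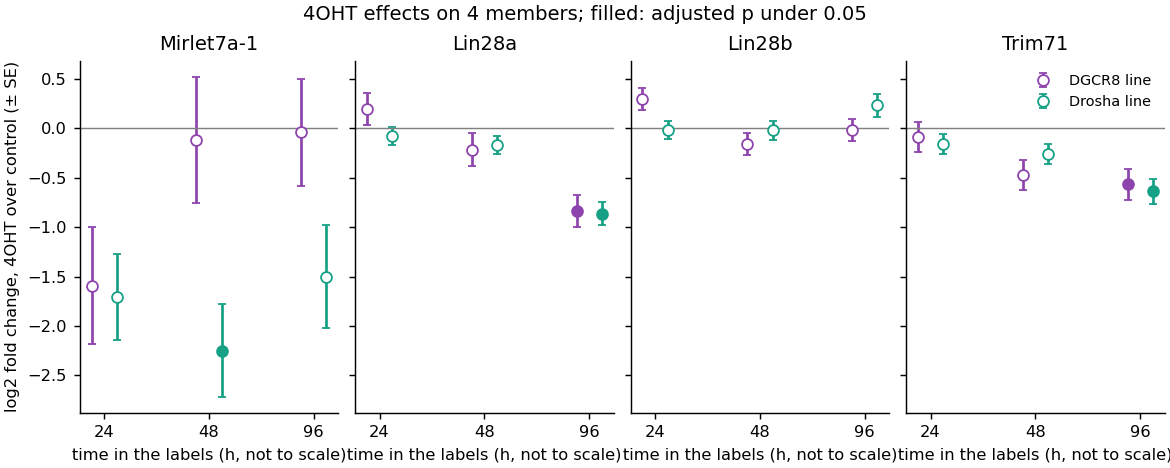
Log2 fold change of 4OHT over control with its standard error for the 4 genes that passed the filter, at 24, 48 and 96 h in the DGCR8 line (purple) and the Drosha line (green); filled points had an adjusted p under 0.05. Lin28a and Trim71 are filled in both lines at 96 h and Mirlet7a-1 in the Drosha line at 48 h, and no Lin28b point is filled.

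Other quantities moved with the same libraries at 96 h. Summed over 8 neuroectoderm markers, 4OHT libraries of the DGCR8 line had 167 and 209 CPM against 103 and 104 CPM in controls, and the Drosha line had 206 against 213 and 223 CPM. Summed over 10 primitive endoderm markers, the Drosha line had 1088 CPM in the 4OHT library against 729 and 743 CPM in controls, and the DGCR8 line 502 and 675 against 530 and 546 CPM. Of 10 stem cell markers, Utf1 (-0.89) and Tdgf1 (-0.53) fell in the DGCR8 line, and Utf1 (-0.93), Sox2 (-0.68), Tdgf1 (-0.67) and 1 other fell in the Drosha line, where Nanog rose (0.65). The mitochondrial ribosomal RNA mt-Rnr2 took 27.1% and 9.55% of reads in the 4OHT libraries of the DGCR8 line against 15.4% and 12.8% in controls, and 21.3% in the Drosha line against 11.8% and 11.7%. Their part in the Lin28a and Trim71 values was not tested, and in bulk RNA fewer cells of a type and less RNA per cell cannot be told apart.

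The factors that make or destroy let-7 were read from a list of 20 genes, all tested. At 48 h Ago1, an Argonaute protein that carries microRNAs, was the single call in each line, and it rose (log2 fold change 1.05 in the DGCR8 line and 0.87 in the Drosha line, where 1.24% and 2.45% of genes tested were called higher). At 96 h 4 of the 20 rose and 1 fell in the DGCR8 line, where 8.25% of all genes were called higher and 5.22% lower. Ago1 rose by 1.38 ± 0.18 (adjusted p = 0.00133; 185 against 71.1 CPM), the RNA-binding protein gene Msi1 by 0.71 and Trim25, whose product aids Lin28a-driven tailing, by 0.43, and Lin28a itself was the 1 that fell. In the Drosha line at 96 h 3 rose and 4 fell, where 12.7% of all genes were called higher and 11% lower, so the 3 that rose are near the share over all genes. Ago1 (0.83) and Tut4, a uridyltransferase that Lin28a recruits (0.70), were among those that rose, and Khsrp, which promotes let-7 maturation, fell by 0.88 (117 against 216 CPM). The list medians at 96 h were 0.05 and -0.04, against 0.02 and -0.01 over all genes tested. Msi1 differed between the lines (1.58 ± 0.31, adjusted p = 0.0480), where 0.181% of 16606 genes did.

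Reported let-7 targets, 29 tested of 30 listed, moved both ways. At 96 h 6 rose and 5 fell in the DGCR8 line, and 3 rose and 7 fell in the Drosha line, counting Lin28a and Trim71. Of all genes tested 8.25% were called higher and 5.22% lower in the DGCR8 line, and 12.7% and 11% in the Drosha line, so 3 of 29 higher is no more than the share over all genes. The D-type cyclin gene Ccnd2 rose by 1.83 ± 0.16 in the DGCR8 line (adjusted p = 0.000184; 125 against 35.0 CPM) and by 0.76 ± 0.11 in the Drosha line (0.000270; 135 against 79.7 CPM), and the lines differed by 1.07 ± 0.21 (adjusted p = 0.0471). Hmga2, a chromatin protein gene and a classical let-7 target, rose by 0.95, Ccnd1 rose by 1.03 and the GTPase gene Nras fell by 0.85 in the DGCR8 line. In the Drosha line the TGF-β receptor gene Tgfbr1 rose by 1.20 ± 0.13 (adjusted p = 4.52e-05; 94.2 against 41.1 CPM) and the phosphatase gene Cdc25a fell by 0.79. At 48 h Ccnd2 (0.82, DGCR8 line) and Tgfbr1 (0.48, Drosha line) were the single calls, and at 24 h there was none in either line. The list medians at 96 h were 0.06 in the DGCR8 line and -0.21 in the Drosha line.

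Reported mRNA targets of Trim71 were read from a list of 8, all tested. At 96 h 4 of the 8 rose and none fell in the DGCR8 line, where 8.25% of all genes were called higher: the pocket protein gene Rbl2 (1.62 ± 0.18; 30.4 against 9.87 CPM), the cell cycle inhibitor gene Cdkn1a (0.93), the immediate early gene Egr1 (0.81) and the splicing regulator gene Mbnl1 (0.68). All 8 log2 fold changes were above 0 there, with a median of 0.54. In the Drosha line 3 rose, where 12.7% of all genes were called higher, Cdkn1a (1.48 ± 0.18; 29.7 against 10.7 CPM), Mbnl1 (1.18) and Rbl2 (0.99), and Egr1 fell by 0.95. There 5 of the 8 log2 fold changes were above 0 and 3 below, with a median of 0.23. Egr1 differed between the lines by 1.76 ± 0.26 (adjusted p = 0.0112). Egr1 was also called higher at 24 h in the DGCR8 line (1.16 ± 0.16, adjusted p = 0.0318, a call that 0.107% of genes had), and Cdkn1a at 48 h in both lines (1.08 and 0.81). Trim71 was lower at those times in both lines but did not pass. Neither the order of these changes nor a part of Trim71 in them was tested. No p is given for the counts, and the medians describe these libraries only.

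By the rule for likeness, Pearson r of log2(CPM + 1) over the 23 floxed libraries against genes of at least 8 mean CPM, the genes nearest to Lin28a were Mief1 (0.922), Usp10 (0.918) and Wdr74 (0.906). Over the 12 heat libraries their r with Lin28a was -0.60, 0.78 and -0.04, so only Usp10 kept its sign at a like size. Trim71 was most like Wipi2 (0.919), Surf6 (0.916) and Dpf1 (0.898), whose r over the heat libraries was -0.29, -0.72 and -0.04. Lin28b was nearest to Trim33 (0.674), Agps (0.666) and Papola (0.664), and kept r of 0.67, 0.69 and 0.61 in the heat set. Lin28a and Trim71 had an r of 0.742 with each other in the floxed set and 0.208 in the heat set. Mirlet7a-1 was nearest to Rpl7a (0.756), Gm22879 (0.751) and Gm12350 (0.719), with r of 0.60, 0.52 and 0.58 in the heat set, over few reads per library. These libraries share lines, times and treatment, so the values are descriptions.

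None of the 4 tested genes was called after heat or in the Mettl3 knockout lines, where 0.64% of genes at 42 °C and 0.902% at 37 °C were called between knockout and parental cells. At 42 °C the knockout lines 1d1, 3xU, 1d2 and 2c4d had 471, 361, 303 and 397 CPM of Lin28a, against 540, 417, 269 and 413 CPM at 37 °C. Parental cells had 407 and 432 CPM at 42 °C against 399 and 415 CPM at 37 °C. The knockout range held both parental values at each temperature, and the log2 fold changes were -0.10 ± 0.20 for heat in knockout lines, 0.05 ± 0.29 for heat in parental cells and 0.01 ± 0.25 for knockout over parental at 37 °C.

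Lin28b separated the knockout lines from one another. Lines 1d2 and 2c4d had 47.4 and 43.7 CPM at 42 °C and 43.6 and 51.2 CPM at 37 °C, whereas 1d1 and 3xU had 117 and 115 CPM at 42 °C and 107 and 106 CPM at 37 °C. Parental values were 98.4 and 90.1 CPM at 42 °C and 126 and 97.3 CPM at 37 °C, close to 1d1 and 3xU. The split by line was the same at both temperatures. The average over lines was lower by 0.54 ± 0.45 in knockout against parental cells at 37 °C (adjusted p = 0.613), within the spread between lines. The split was seen in the data and was not tested. In the order of the sample titles 1d1 and 3xU stand with parental 1, and 1d2 and 2c4d with parental 2. Parental 2 had at least 90.1 CPM at 42 °C and 97.3 CPM at 37 °C, so the low values were not shared by every sample of its set. Among the knockout lines alone, a difference between lines cannot be told apart from one between these sets of samples. The part of the sets was not tested.

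Trim71 was lower at 42 °C than at 37 °C in each of the 6 lines. The knockout lines had 950, 1002, 780 and 521 CPM at 42 °C against 1062, 1182, 888 and 764 CPM at 37 °C, and the parental samples 913 and 779 against 1126 and 970 CPM. The log2 fold changes were -0.26 ± 0.21 (adjusted p = 1.00) in knockout lines and -0.31 ± 0.30 (1.00) in parental cells, in a fit that called 0.185% and 0.0192% of genes. With the line as a block, which compares each line with itself and called 1058 and 119 genes in place of 29 and 3, Trim71 was -0.28 ± 0.08 in knockout lines (adjusted p = 0.0672) and -0.31 ± 0.12 in parental cells (0.278), and no member was called. Mirlet7a-1 had 2.56, 4.15, 5.66 and 2.42 CPM in knockout lines at 42 °C against 1.05, 4.18, 3.29 and 4.37 CPM at 37 °C, and 2.72 and 6.22 against 2.21 and 3.20 CPM in parental cells, groups that overlapped throughout. Mirlet7d had 0 to 4 reads per library and 12 in all. No gene of the lists of hairpins and hosts, maturation factors, let-7 targets or Trim71 targets was called in these comparisons.

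**Figure D3:**
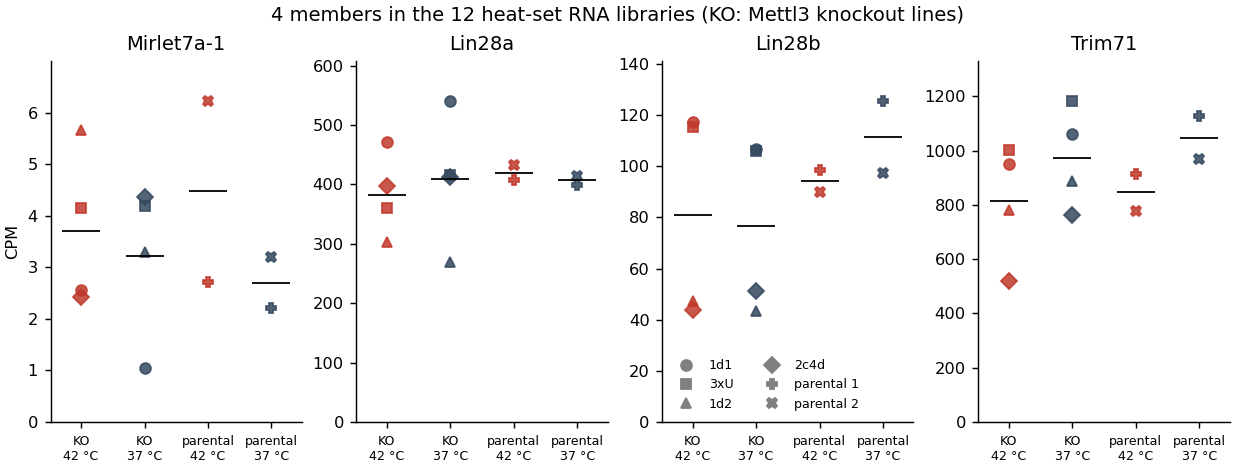
Level of Mirlet7a-1, Lin28a, Lin28b and Trim71 in the 12 libraries of the heat set, in TMM-scaled CPM, with knockout cells at 42 °C and 37 °C left of parental cells at 42 °C and 37 °C; the marker shape gives the line and the black bar the group mean. Lin28b falls into a pair of knockout lines near 45 CPM and a pair above 105 CPM at both temperatures, and Trim71 is lower at 42 °C in each line.

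On chromatin, Mirlet7a-1, Mirlet7d and Mirlet7f-1 share the window chr13:48535001-48540000, so they share its value. DGCR8 and Drosha precipitates held far more reads there than inputs. The DSG-crosslinked DGCR8 precipitate had 967 reads (20.2 CPM) against 22 reads (0.498 CPM) in its input, a log2 ratio of 5.28 with a 95% interval for counting error of 4.73 to 6.02. Only 11 of 46206 genes had a higher ratio, and 9.05% of genes were past 2-fold higher. The Drosha precipitate had 12.7 against 0.735 CPM (4.00, 3.47 to 4.81; 8.43% of genes past 2-fold), and the FA-crosslinked DGCR8 precipitate 1.81 against 0.498 CPM (1.80, 1.14 to 2.63; 3.41%). The Dicer precipitate had 20 reads against 22 in the input (0.335 against 0.735 CPM), too few for a ratio under the minimum of 50 reads. These conditions have 1 library each, so the intervals say nothing of replicate error and no test was made.

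DGCR8 at the let-7 window was lower in the Mettl3 knockout precipitate. That library had 59 reads (2.74 CPM) against 197 reads (6.53 CPM) in the wild type precipitate, a log2 ratio of -1.24 (-1.70 to -0.83), when 0.731% of genes were past 2-fold lower. Both stood above the wild type input at 1.07 CPM. In the heat set the DGCR8 precipitate had 21.4 CPM at 42 °C against 42.4 CPM at 37 °C (-0.99, -1.11 to -0.87), when 8.49% of genes were past 2-fold lower. The 37 °C input had 0.484 CPM. At 37 °C the ratio over input was 6.32 (5.93 to 7.03), exceeded by 5 of 44795 genes.

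The 5 kb beyond Mirlet7d, chr13:48530001-48535000, outside the spans and given as context, held more DGCR8 reads than the hairpins' own window in each DGCR8 precipitate except that of the Mettl3 knockout. The DSG precipitate had 129 against 1.81 CPM there (6.13, 5.83 to 6.49), with 2 of 445906 windows higher by ratio, and the 37 °C precipitate of the heat set had 387 against 2.60 CPM (7.19), the 6th highest window by CPM. The FA precipitate had 6.52 against 1.81 CPM (1.83), a ratio close to the 1.80 of the hairpins' window. In the Mettl3 knockout it stood at 2.74 CPM, from 59 reads as in the hairpins' window, against 39.9 CPM in the wild type precipitate and 2.29 CPM in the input. That log2 ratio of -3.85 (-4.27 to -3.49) was undercut by 4 of 439870 windows. Over the wild type input the knockout ratio was 0.25 there (-0.29 to 0.80) and 1.32 in the hairpins' window. At 42 °C the window had 101 CPM against 387 CPM at 37 °C (-1.94), and its ratio over the 37 °C input was 5.28 at 42 °C, with 5.42 in the hairpins' window. The Drosha precipitate had 41.9 against 2.00 CPM there (4.34) and the Dicer precipitate 2.19 against 2.00 CPM (0.13). The window on the 5′ side, chr13:48540001-48545000, was lower than both in the DSG and 37 °C precipitates, at 5.73 against 0.656 CPM for the DSG precipitate (3.08) and 17.4 against 0.951 CPM at 37 °C (4.13).

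**Figure D4:**
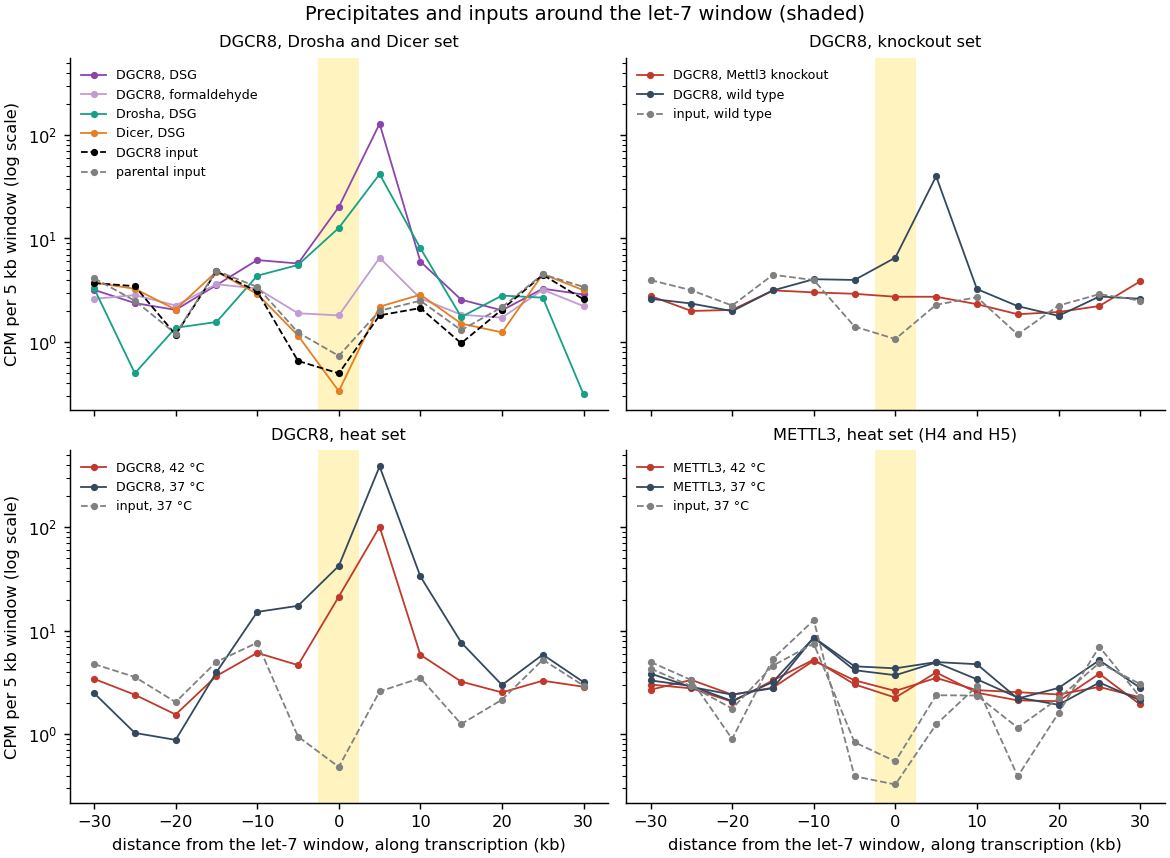
CPM per 5 kb window on a log axis, from 30 kb before to 30 kb after the let-7 window in the direction of transcription, in 4 panels for the DGCR8, Drosha and Dicer set, the DGCR8 knockout set, the DGCR8 heat set and the METTL3 heat set; the let-7 window is shaded. The Drosha curve and the DGCR8 curves of cells with Mettl3 peak in the window just beyond Mirlet7d, while the DGCR8 curve of the Mettl3 knockout has 2.74 CPM in both windows. Dicer and inputs are at low CPM but also higher there than in the let-7 window. Dicer has 2.19 against 0.335 CPM, the DGCR8 input 1.81 against 0.498 CPM and the parental input 2.00 against 0.735 CPM.

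Other let-7 loci had lower ratios. For the DSG-crosslinked DGCR8 precipitate over input and for the 37 °C precipitate over its input, the window of Mirlet7f-2 and Mir98 had 2.54 and 3.53, that of Mirlet7i 1.34 and 2.30, that of Mirlet7g 0.84 and 1.84, that of Mirlet7a-2 1.02 and 0.27, and that of Mirlet7b and Mirlet7c-2 -0.42 and 1.61. For the knockout over the wild type precipitate, these windows in the same order had -1.25, -0.80, -0.10, 0.44 and -0.46. For 42 °C over 37 °C they had -0.86, -1.44, -1.215, 0.78 and -1.105. The windows of Mirlet7e and Mirlet7c-1 had 0.44 and 0.19 in the knockout, and 1.07 and 2.065 at 42 °C. A lower value in the knockout or after heat was thus not particular to the hairpins' window. These are descriptions of single precipitates.

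At the protein-coding members DGCR8 ratios over input differed between the sets. Summed over the windows of each gene, the DSG precipitate had 32.6 against 18.6 CPM for Lin28a (0.81), 42.4 against 23.4 CPM for Lin28b (0.86) and 88.9 against 66.4 CPM for Trim71 (0.42). In the other set, wild type DGCR8 had 13.0 against 18.5 CPM for Lin28a (-0.51), 49.1 against 35.7 CPM for Lin28b (0.46) and 50.8 against 65.4 CPM for Trim71 (-0.36). In the 37 °C precipitate of the heat set Lin28b had 72.2 against 26.8 CPM (1.43, 1.33 to 1.53), Lin28a 35.5 against 18.9 CPM (0.91, 0.77 to 1.04) and Trim71 145 against 78.8 CPM (0.87, 0.81 to 0.94). The FA precipitate had ratios of 0.38 for Lin28b, -0.22 for Lin28a and -0.30 for Trim71. Lin28b was thus above input in each of these 4 precipitates, while Lin28a and Trim71 were above it in the DSG and 37 °C precipitates and below it in the wild type precipitate of the knockout set and in the FA precipitate. For DGCR8 in the knockout against wild type cells, Trim71 had 36.3 against 50.8 CPM (-0.48), and Lin28a (-0.07) and Lin28b (-0.03) had intervals that held 0.

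After heat DGCR8 was lower at Lin28a and Trim71. Lin28a had 14.3 CPM at 42 °C against 35.5 CPM at 37 °C (-1.31, -1.45 to -1.18), Trim71 57.9 against 145 CPM (-1.32, -1.39 to -1.25) and Lin28b 61.5 against 72.2 CPM (-0.23, -0.32 to -0.15). In that pair of libraries 8.49% of genes were past 2-fold lower. By window, 9 of the 11 of Trim71 were past 2-fold lower, when 4.15% of windows were. Over input at 37 °C, 17 of the 23 windows of Lin28b were past 2-fold higher and 3 of the 11 of Trim71, when 16.4% of windows were.

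METTL3 was measured with replicates. In the clone set 2 precipitates came from each clone, and the main fit counted them as separate samples, so its p-values do not measure the spread between clones. At the let-7 window the 4 precipitates of the clone set had 2.14, 2.02, 2.53 and 2.32 CPM against 0.926 and 0.947 CPM in the inputs, and the groups did not overlap. Tested as gene sums, METTL3 over input was 1.24 ± 0.26 (adjusted p = 0.000493), rank 436 of 47124 genes, when 17.4% of genes were called higher. In the heat set the 37 °C precipitates had 4.34 and 3.72 CPM against 0.328 and 0.548 CPM in inputs (3.20 ± 0.32, adjusted p = 0.00799; 18.2% of genes called higher), rank 293 of 47670. This sum is 1 window alone, ranked against genes of which many span more windows. Among windows it ranked 7262 of 477127 in the clone set and 13884 of 493877 in the heat set. The test of it as a window, given below, uses the same reads. At 42 °C the precipitates had 2.62 and 2.26 CPM, under both 37 °C values, and the difference of -0.69 ± 0.28 did not pass (adjusted p = 0.591). The labels do not say whether H4 and H5 are separate clones.

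Trim71 had METTL3 over part of its length. Its gene sum was 81.7, 107, 120 and 79.6 CPM in the precipitates against 58.1 and 55.5 CPM in inputs (0.75 ± 0.12, adjusted p = 2.18e-05). Of its 11 windows 4 were called higher, when 4.14% of windows were, and they were not spread evenly. The window chr9:114555001-114560000, next to the one with the start of Trim71, had 15.3, 20.6, 24.0 and 11.6 CPM against 2.59 and 3.50 CPM in inputs (2.37 ± 0.25, adjusted p = 4.7e-15), rank 115 of 477127 windows. The neighbouring window further into the gene stood at 1.21 and 2 others at 0.69. Those at 0.69 were lost without either input library (adjusted p = 0.0729 to 0.216).

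In the heat set Trim71 did not pass at 37 °C as a gene sum (0.93 ± 0.33, adjusted p = 0.0618), although with the H4 and H5 pairing as a block it did (0.89, adjusted p = 0.0322). The same window near its start had 25.6 and 43.5 CPM in the 37 °C precipitates against 6.50 and 6.69 CPM in inputs, and 4.66 and 9.87 CPM in the 42 °C precipitates, values at 42 °C that lie around the inputs. At 42 °C against 37 °C all 11 windows of Trim71 were lower, from -2.34 to -0.54, and its gene sum was -1.32 ± 0.34 (adjusted p = 0.287; 0.0503% of genes called lower), rank 47217 of 47670. No window of Trim71 was called in that comparison, where 1 of 493877 windows was (0.000202% lower). All 4 windows of Lin28a were lower as well and the Lin28a sum was -0.69 ± 0.31 (adjusted p = 0.673), while windows of Lin28b split into 10 above and 13 below 0 (sum 0.06 ± 0.17).

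Lin28a was not above input for METTL3. Its sums were 17.6, 21.4, 27.1 and 21.7 CPM in precipitates against 21.5 and 21.4 CPM in inputs (0.01 ± 0.12, adjusted p = 0.962). The window with its start was called lower, at 5.77, 6.12, 9.08 and 7.85 CPM against 11.1 and 10.9 CPM (-0.82), when 12.5% of windows were. Its windows are 4, and the one at its 3′ end also overlaps Dhdds.

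Lin28b, the longest span, had a small METTL3 difference as a sum in the clone set and a larger one in the heat set, and its windows were uneven. Its sums in the clone set were 38.0, 38.9, 41.4 and 38.8 CPM in precipitates against 33.1 and 32.2 CPM in inputs (0.24 ± 0.08, adjusted p = 0.0159), a call lost without either input library (adjusted p = 0.121 and 0.106). Of its 23 windows 3 were called higher and 1 lower. The 3 were lost without the input of clone 1, and the 1 lower, chr10:45425001-45430000, stood at -1.62 ± 0.20 (adjusted p = 1.48e-11) and held without each library in turn. In the heat set at 37 °C 15 of the 23 were called higher, when 20.8% of windows were, and the sum was 1.15 ± 0.17 (adjusted p = 0.00916), lost without either precipitate (adjusted p = 0.0543 and 0.0586). Among those 15 was chr10:45425001-45430000, the window called lower in the clone set, here at 1.03 ± 0.37 (adjusted p = 0.0320). Its direction thus differed between the 2 sets. Leaving out 1 of the 4 libraries ended the call of 7 of those 15 windows, this one included. The 2 highest windows there stood at 3.85 and 3.66, and 2 of the windows were called higher in both sets. The let-7 window, tested as a window, was called higher in both sets too, at 1.05 ± 0.28 in the clone set (adjusted p = 0.00243) and 2.77 ± 0.33 in the heat set (9.42e-05), but without the input of clone 1 the clone set call was lost (adjusted p = 0.115). With scaling to library totals alone, the median of all windows shifts up by 0.22 in the clone set and by 0.44 in the heat set, so a window difference of that size depends on the scaling. Under that scaling the split of calls moved to 60.8% higher, against 24.8% with TMM, in the clone set, and to 73.0%, against 52.3%, in the heat set.

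**Figure D5:**
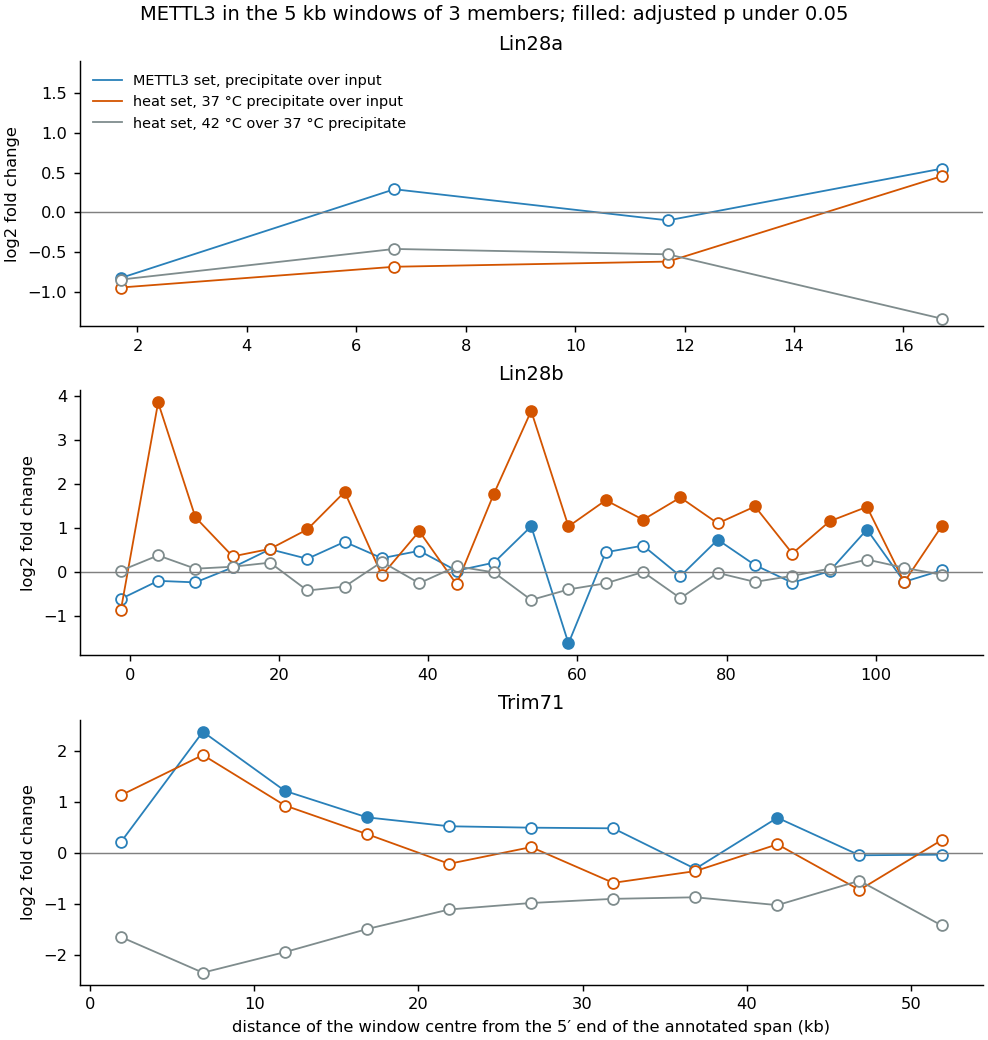
Log2 fold change per 5 kb window against distance from the 5′ end of Lin28a, Lin28b and Trim71, for METTL3 over input in the clone set, METTL3 over input at 37 °C in the heat set, and METTL3 at 42 °C over 37 °C; filled points were called. The highest point of Trim71 in the clone set lies within 10 kb of its start, and every Trim71 point of the 42 °C over 37 °C comparison is below 0.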

How the data were processed

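The authors deposited whole-number read counts, per gene for RNA and per 5 kb window for chromatin. Alignment used Bowtie and mm10, as the submitters' processing notes name them; the version of the aligner, the counting strand and the annotation are not given in the sources used here. RNA was ribosomal RNA-depleted and made into ScriptSeq v2 libraries, per the labels' protocols. The DGCR8 column that no other label matched was taken as the formaldehyde precipitate. Deposited counts were used unchanged; of 39017 gene identifiers 37607 had a symbol. Columns of other samples numbered 0.

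The members and gene lists were chosen with earlier results of these data known. The text names the 5 members, the targeted genes, up to 4 called genes per list and comparison by smallest p, and for each member above 1 mean CPM the 3 genes most like it. Counts were tested with edgeR 4.0.16 (R 4.3.3): TMM, filterByExpr, quasi-likelihood F test, Benjamini-Hochberg adjustment over all genes tested, threshold 0.05, with 1 coefficient per group. Groups of a line, or of the heat set, share an estimate of spread, so the single 4OHT library of the Drosha line at 96 h is assumed to vary like the other groups. Windows of the METTL3 sets that averaged 10 counts or more, and sums of the windows overlapping a gene, were tested likewise. Single precipitates were compared as log2 CPM ratios with a pseudocount of 1 read scaled to the smaller library, for features with at least 50 reads in both libraries together, with 95% intervals from the exact binomial (scipy 1.17.1) that cover counting error only. Motifs and seeds were searched in RefSeq sequences of GRCm38.p6, where all 5 members matched by symbol.

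Replicate numbers of the floxed set did not pair the samples: deviations of same-numbered libraries correlated at r of -0.32 to 0.23. Lines of the heat RNA set paired (0.48 to 0.74), being the same lines at both temperatures. For METTL3 no such correlation was computed. Its main fits left the clone, or H4 and H5, out of the model, and the replicate block put them in. Alternatives tried were DESeq2 1.42.0, other scalings, no filter, only the groups compared, each replicate left out where its group kept another, the replicate block, other windows, inputs and pseudocounts. The tests were checked on simulated data.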

Additional observations from a re-analysis of the deposited data

Results flagged for a closer look

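Lin28a in the Drosha line was picked out because its 4OHT effect differed between times by a test of the difference itself. The effect at 96 h minus the effect at 24 h was -0.78 ± 0.15 on the log2 scale (adjusted p = 0.00550, edgeR's quasi-likelihood test), with 256 CPM in the single 4OHT library at 96 h and 337 and 318 CPM in 4OHT libraries at 24 h, against control values of 493 and 436 CPM at 96 h and 333 and 360 CPM at 24 h. The call held without each of 6 libraries in turn, with values from -0.87 to -0.71. The single 4OHT library at 96 h, on which the effect rests, could not be left out. The same 4OHT library stood apart in other measures at 96 h, with 21.3% of its reads on mt-Rnr2 against 11.8% and 11.7% in its controls, and their part in the difference was not tested. No library stood apart within the groups of 4 knockout libraries, the only groups large enough to be looked at.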

How the results depend on the processing

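The fall of Lin28a and Trim71 at 96 h in the Drosha line kept direction and call under every alternative run, and so did the let-7 window for METTL3 as a gene sum in both sets; tested as a window, its call in the clone set was lost without the input of clone 1 (1.02, adjusted p = 0.115). In the DGCR8 line both calls at 96 h were lost in fits of only the groups compared, at -0.84 for Lin28a (adjusted p = 0.144) and -0.57 for Trim71 (0.214), fits with fewer libraries in which edgeR called 0 genes, when DESeq2 over all groups called 1774. That setting also ended the Mirlet7a-1 call of the Drosha line at 48 h (-2.25, adjusted p = 0.0860). Depth limits the hairpins: 9 to 87 reads per library were counted for Mirlet7a-1 and 0 to 12 for Mirlet7d, and the chromatin ratios of single libraries carry no replicate error at all.

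Without the filter on low counts, more comparisons passed. They were Mirlet7a-1 at 24 h in the DGCR8 line (-1.58) and in the Drosha line (-1.73), at 96 h in the Drosha line (-1.52), its 96 h minus 24 h difference in the DGCR8 line (1.51) and its line difference at 48 h (2.14, from 2.12), Trim71 at 48 h in the DGCR8 line (-0.48), and the 96 h minus 24 h difference of Lin28a in the DGCR8 line (-1.06) and of Trim71 in the Drosha line (-0.47). The last 2 also passed with DESeq2 (-1.02 and -0.47), and in fits of only the groups compared Trim71 (-0.47) and Mirlet7a-1 in the Drosha line at 24 h (-1.71) and 96 h (-1.49) passed. The cause was not tested. With the replicate block, which the floxed samples do not bear out as a pairing, Mirlet7a-1 in the Drosha line passed at 24 h (-1.71, adjusted p = 0.0413) and 96 h (-1.82, 0.0152), and its 96 h minus 24 h difference turned to -0.11 from 0.21. For METTL3 at 37 °C the Trim71 sum passed with the replicate block (0.89) and with library totals alone (0.94); Lin28a over input, near 0, turned to -0.00866 with the replicate block and to -0.19 over windows that lie mostly within the gene. The replicate block changed no other call of a member. For DGCR8 the let-7 window was at 4.72 over the other input and, at 37 °C, at 5.87 with a pseudocount of 5, and Lin28a in the Dicer precipitate turned to 0.10 over the other input.

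Leaving out 1 library at a time gave these ranges where a direction or call changed. In the DGCR8 line they were -0.76 to 0.33 for Mirlet7a-1 at 48 h, and at 96 h -1.30 to 0.69 for Mirlet7a-1, -1.18 to -0.56 for Lin28a, -0.13 to 0.083 for Lin28b and -0.85 to -0.33 for Trim71. In the Drosha line they were -0.055 to 0.030 for Lin28b at 24 h, -2.78 to -1.54 for Mirlet7a-1 and -0.13 to 0.083 for Lin28b at 48 h, and -1.82 to -1.08 for Mirlet7a-1 at 96 h. The 96 h minus 24 h differences ran from -1.38 to -0.75 for Lin28a and -0.76 to -0.23 for Trim71 in the DGCR8 line, and from -0.11 to 0.63 for Mirlet7a-1 in the Drosha line. Line differences ran from -0.32 to 0.44 for Mirlet7a-1 at 24 h, and at 96 h from -2.17 to 2.02 for Mirlet7d, -0.33 to 0.32 for Lin28a and -0.21 to 0.32 for Trim71. Heat in knockout lines gave -0.10 to 0.38 for Mirlet7a-1, -0.24 to 0.053 for Lin28a and -0.16 to 0.29 for Lin28b, and heat in parental cells -0.00402 to 0.087 for Lin28a. Knockout over parental gave -0.13 to 0.18 for Lin28a and -0.21 to 0.014 for Trim71 at 37 °C, and -0.72 to 0.45 for Mirlet7a-1, -0.46 to 0.00445 for Lin28b and -0.16 to 0.13 for Trim71 at 42 °C. The heat effect in knockout minus parental cells gave -1.002 to 0.19 for Mirlet7a-1, -0.29 to 0.000116 for Lin28a and -0.063 to 0.22 for Trim71. METTL3 sums gave -0.11 to 0.10 for Lin28a and 0.22 to 0.25 for Lin28b in the clone set, and -0.32 to 0.28 for Lin28a and 1.10 to 1.21 for Lin28b in the heat set.

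Counts of called genes moved more than the members did. For 4OHT over control the DGCR8 line had 16 at 24 h (30 with DESeq2, 56 unfiltered, 7 with the replicate block, 1 to 4 with a library left out), 221 at 48 h (458 unfiltered, 76 with the block, 15 to 27) and 2017 at 96 h (0 with only the groups compared, 401 to 2953). The Drosha line had 30 (355 unfiltered, 748 with only the groups compared, 54 with the block, 9 to 47), 458 (933, 136, 219, 47 to 987) and 3854 (2057 with the block). With replicate numbers crossed, an alternative added after seeing the data, the counts were 25 for the DGCR8 line at 24 h and 1143 for the Drosha line at 48 h. The 96 h minus 24 h differences had 27 in the DGCR8 line (98 with DESeq2, 269 unfiltered, 0 with only the groups compared, 0 with the block, 47 crossed, 0 to 512) and 1880 in the Drosha line (243 with the block, 642 to 2364). Line differences had 1 at 24 h (12 unfiltered, 3 crossed), 1 at 48 h (6 with DESeq2, 58 unfiltered) and 30 at 96 h (103, 427, 0 with only the groups compared, 1 with the block, 1 to 1876). Heat called 29 genes in knockout lines (106 with DESeq2, 46 unfiltered, 13 with only the groups compared, 1058 with the block, 14 to 23) and 3 in parental cells (31, 22, 119 with the block). Knockout over parental had 141 at 37 °C (747 with DESeq2, 383 unfiltered, 4 with only the groups compared, 0 to 99) and 100 at 42 °C (699, 380, 1, 0 to 55), and the heat difference 0 (208 at an unadjusted p under 0.05, 5 with DESeq2, 24 unfiltered, 2 with the block). METTL3 over input had 19958 genes (12196 to 19725) and 79460 windows (40244 to 78903), the heat set at 37 °C 17421 genes (518 to 24304) and 196641 windows (79257 to 254051), and 42 °C over 37 °C 34 genes (168 with library totals alone, 361 with the block, 0 to 6) and 1 window (0, 779, 0 to 18).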

Other observations

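In the Mettl3 knockout lines, primitive endoderm markers, which are no members, summed lower than in parental cells. The sum over 10 genes was 69.0 to 211 CPM at 42 °C and 75.5 to 237 CPM at 37 °C in knockout lines, with medians of 86.6 and 93.6 CPM. Parental cells had 341 to 366 CPM at 42 °C and 292 to 423 CPM at 37 °C. The lines were thus uneven in how far they lay below. Gata4 (-3.81 ± 0.42 at 37 °C, adjusted p = 0.00426), Gata6 (-3.16), Pdgfra (-3.14) and Cubn (-4.41), genes of that lineage, fell at 37 °C, and the same 4 genes fell at 42 °C. They are named for the smallest p on that list, where 0.902% of all genes at 37 °C and 0.64% at 42 °C were called. With only the groups compared, 4 genes were called at 37 °C in place of 141, and 1 at 42 °C in place of 100. None of the let-7 hairpins, Lin28a, Lin28b or Trim71 was called in those comparisons.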
